A study of Homo sapiens with 4 samples.

Results

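Receptor tyrosine kinases are single-pass membrane proteins that bind growth factors, ephrins, Wnt ligands or matrix outside the cell and carry a tyrosine kinase or kinase-like domain inside it. A list of 48 of their genes was followed here in 2 human small cell lung cancer lines in which TTF-1 had been targeted by siRNA. Probe sets were taken where the platform's annotation paired them with the symbol of a listed receptor and no other gene, which gave 155 probe sets for 46 of the 48 genes, among 41091 probe sets for 19775 genes in all. The probe sets of DDR1 are annotated with a microRNA gene as well and EPHB2 was not paired in the annotation used, so these receptors were not analysed here.

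The study compared NCI-H209 cells electroporated with siRNA against TTF-1 (siTTF-1) with NCI-H209 cells given the control siRNA (siNTC), and Lu139 cells given siTTF-1 with Lu139 cells given siNTC. Each of these 4 groups was 1 array of total RNA, so no group had a replicate. TTF-1 is the homeodomain transcription factor encoded by NKX2-1, which directs lung and thyroid development and is expressed in many small cell lung cancers. All cells underwent electroporation, both siRNAs were given without a labelled dose or time, and each line stands for 1 tumour.

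In many receptor tyrosine kinases, ligand binding brings receptor chains together and the kinase domains phosphorylate each other. Adaptors docked on the phosphotyrosines pass the signal to the RAS-ERK and PI3K-AKT cascades. CBL ubiquitin ligases, Sprouty proteins and dual-specificity phosphatases damp the signal. In small cell lung cancer, KIT with its ligand stem cell factor, IGF1R, MET and the FGF receptors are the receptors most often studied, and EGFR is usually low. RNA levels say nothing of receptor protein, phosphorylation or signalling, which were not measured.

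Promoter sequences are shown for 6 receptors on which the results below turn. They belong to INSR, ERBB4 and FGFR3, which differed most between siTTF-1 and siNTC in NCI-H209, to MET and RYK, the lowest and the highest by mean difference among receptors expressed in both lines, and to IGF1R, whose difference between the lines ran opposite to that of INSR. Each is the 250 bases upstream of the RefSeq start site in GRCh38.p14, 5′ to 3′ on the strand of the gene, with GC boxes (GGGCGG or CCGCCC, overlaps joined) in capitals. The build that the submitters used for the arrays is not given in the sources used here, and these coordinates are those of RefSeq.
INSR (chr19:7294415-7294664, minus strand): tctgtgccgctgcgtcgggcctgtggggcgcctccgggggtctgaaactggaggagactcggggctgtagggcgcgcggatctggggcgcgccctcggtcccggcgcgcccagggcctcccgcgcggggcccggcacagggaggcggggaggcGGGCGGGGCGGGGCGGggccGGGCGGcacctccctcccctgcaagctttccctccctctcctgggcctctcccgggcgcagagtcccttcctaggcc
ERBB4 (chr2:212538803-212539052, minus strand): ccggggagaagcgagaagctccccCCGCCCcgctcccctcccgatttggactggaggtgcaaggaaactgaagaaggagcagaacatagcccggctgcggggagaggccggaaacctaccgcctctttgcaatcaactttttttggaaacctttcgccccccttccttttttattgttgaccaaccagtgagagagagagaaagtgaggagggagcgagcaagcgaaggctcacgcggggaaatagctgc
FGFR3 (chr4:1793043-1793292, plus strand): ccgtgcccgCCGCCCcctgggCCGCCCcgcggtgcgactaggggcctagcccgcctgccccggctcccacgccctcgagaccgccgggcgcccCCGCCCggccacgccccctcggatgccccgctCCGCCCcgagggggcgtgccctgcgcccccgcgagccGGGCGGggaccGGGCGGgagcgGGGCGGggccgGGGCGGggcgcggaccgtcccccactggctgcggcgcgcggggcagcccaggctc
MET (chr7:116671946-116672195, plus strand): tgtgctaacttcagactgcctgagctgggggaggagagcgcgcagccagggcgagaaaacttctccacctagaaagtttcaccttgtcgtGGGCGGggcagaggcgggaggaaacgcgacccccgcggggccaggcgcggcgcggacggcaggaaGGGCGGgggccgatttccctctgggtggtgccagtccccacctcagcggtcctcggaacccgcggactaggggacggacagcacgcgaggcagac
RYK (chr3:134250860-134251109, minus strand): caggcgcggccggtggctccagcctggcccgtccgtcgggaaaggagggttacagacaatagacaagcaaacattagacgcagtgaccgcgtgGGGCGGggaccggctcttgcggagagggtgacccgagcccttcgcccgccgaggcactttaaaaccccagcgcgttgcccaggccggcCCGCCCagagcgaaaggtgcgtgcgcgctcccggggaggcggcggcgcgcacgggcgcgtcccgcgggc
IGF1R (chr15:98648289-98648538, plus strand): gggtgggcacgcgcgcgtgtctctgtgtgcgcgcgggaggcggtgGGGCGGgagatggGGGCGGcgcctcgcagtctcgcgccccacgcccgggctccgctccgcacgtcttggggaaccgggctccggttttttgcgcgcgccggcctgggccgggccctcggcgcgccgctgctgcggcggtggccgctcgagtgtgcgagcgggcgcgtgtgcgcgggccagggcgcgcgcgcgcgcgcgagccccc
None of the 6 windows held CAAGTG or CTCAAG, the core letters of published TTF-1 sites, on either strand. The GC boxes numbered 4 in INSR, 1 in ERBB4, 8 in FGFR3, 2 in MET, 2 in RYK and 2 in IGF1R. Across the 75 promoters listed for 45 receptor genes, 9.33% held either core motif, against 18.3% of all 35116 promoters, and 62.7% held a GC box, against 42.6% of all promoters. The receptor promoters also had more G and C, with a median of 64.8% against 58% for all promoters, and the part of base composition in both shares was not tested. The 75 promoters include those of DDR1 and EPHB2. Such a match is a description of letters and not a binding site, and a missing match says only that these letters are not in the window. ERBB3, FGFR1 and FLT4 are not shown.

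NKX2-1 was lower with siTTF-1 in both lines. Its brighter probe set, 211024_s_at, had an intensity of 243 with siTTF-1 against 596 with siNTC in NCI-H209, and 461 with siTTF-1 against 780 with siNTC in Lu139. The siTTF-1 level was thus 40.7% of siNTC in NCI-H209 and 59.1% in Lu139, and both NKX2-1 probe sets were lower in both lines. Small cell and neuroendocrine markers were above the expression limit in both lines for all 8 of the 10 listed genes that had a value, with intensities from 77.2 to 13846. Of 6 endothelial markers 4 were above the limit in each line, yet CDH5, which defines endothelium, lay at 9.63 with siTTF-1 and 10.7 with siNTC in NCI-H209 and at 11.0 with siTTF-1 and 10.5 with siNTC in Lu139. PTPRC, the pan-leukocyte gene, lay between 9.78 and 11.3 on the 4 arrays, and COL3A1 of fibroblasts between 17.9 and 21.0. Other markers of these lists read higher. Endothelial markers reached 145.6, fibroblast and pericyte markers 361.5 and leukocyte markers 88.6, and in both lines 3 of 6 fibroblast and pericyte, 2 of 4 leukocyte, 1 of 2 squamous and 3 of 3 alveolar markers with a value were above the limit. The part of other cell types in the results was not tested. The 3′ to 5′ signal ratio of the GAPDH control was 0.912 to 0.936 on all 4 arrays and that of actin 1.03 to 1.09.

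The levels of the receptors were read from the brightest probe set of each gene, and a receptor was counted as expressed in a line if the mean of its 2 arrays there was above 5.80 on the log2 scale, an intensity of 37.0. By this limit 27 of the 46 receptors (58.7%) were expressed in both lines, against 67.3% of all genes. Another 7 passed in NCI-H209 alone, namely ERBB4, INSR, FGFR3, ALK, DDR2, TEK and MERTK (15.2%, against 6.71% of all genes). ROR1 and EPHA1 passed in Lu139 alone (4.35%, against 3.49% of genes). The remaining 10 were dim in both lines (21.7%, against 22.5% of genes), with intensities from 7.95 to 35.9, and were PDGFRA, KDR, ROS1, NTRK2, ROR2, MUSK, TIE1, AXL, EPHA3 and EPHB6. In RNA from whole cultures, fewer cells with a receptor and less RNA per cell cannot be told apart.

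**Figure D1:**
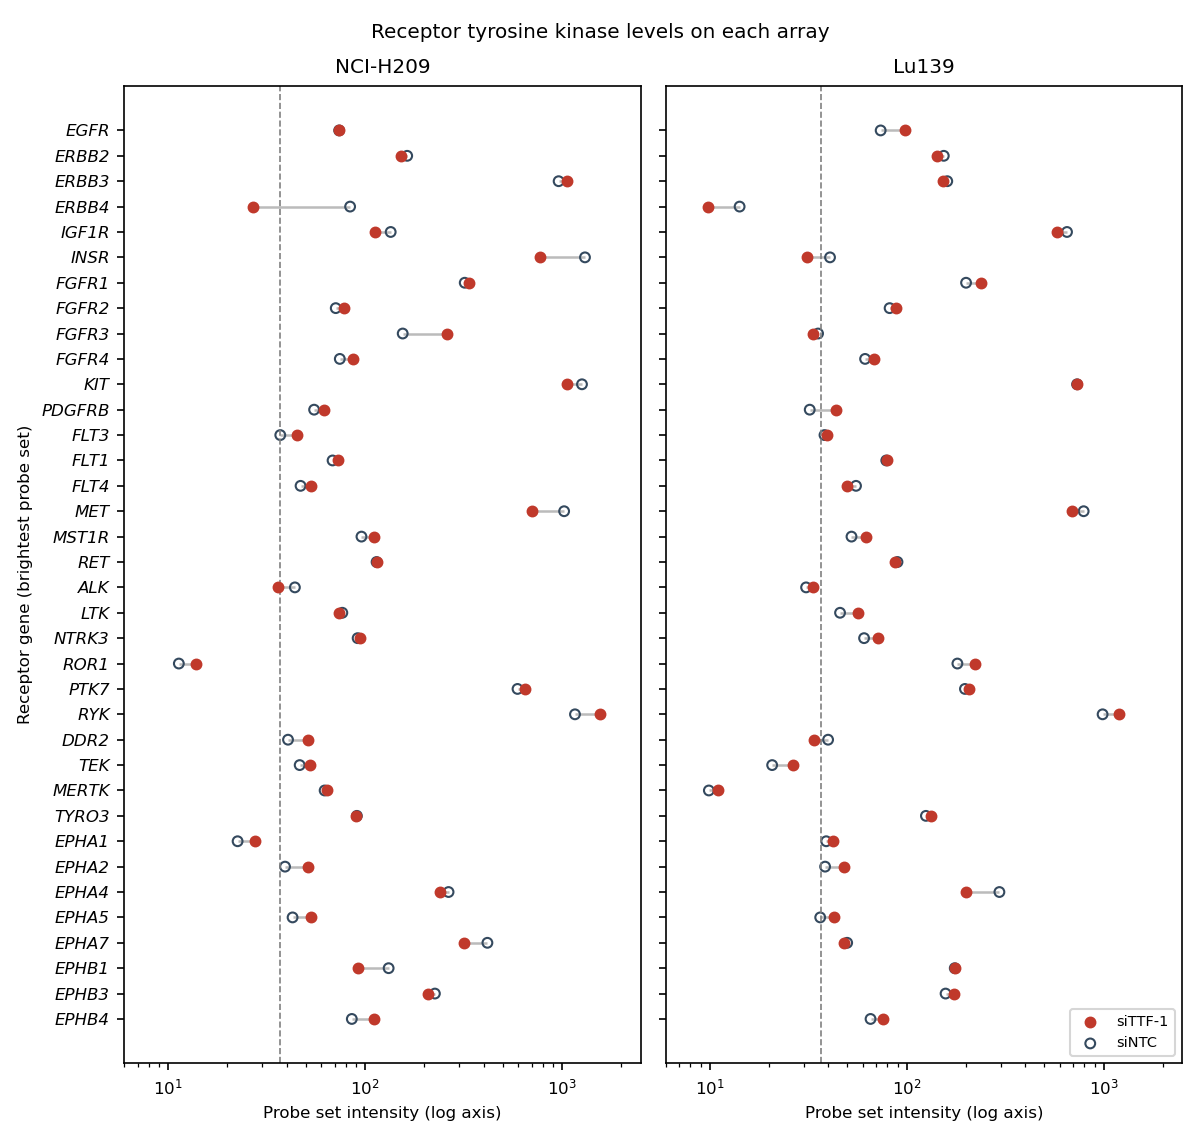
Intensity of the brightest probe set (x axis, log scale, arbitrary units) of the 36 receptor genes above the expression limit in at least 1 line (y axis, by family), with siTTF-1 as filled red and siNTC as open dark points, and the limit of 37.0 as a dashed line. In most rows the siTTF-1 and siNTC points lie close together, while ERBB4, INSR and FGFR3 in NCI-H209 lie apart.

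Between siTTF-1 and siNTC most receptors differed little. Of the 34 receptors expressed in NCI-H209, ERBB4 and INSR were at least 1.5-fold lower with siTTF-1 (5.88%), against 3.52% of the 14632 genes expressed in that line. FGFR3 was the 1 receptor at least 1.5-fold higher (2.94%), against 1.09% of genes. In Lu139 none of the 29 expressed receptors was 1.5-fold lower, against 0.936% of 13996 genes, and none was 1.5-fold higher, against 0.193% of genes. At 2-fold, ERBB4 alone was lower in NCI-H209 (2.94%), against 0.649% of genes. ERBB4 entered these counts through its siNTC reading, since its siTTF-1 reading was under the limit. Against the limit it was at least 1.84-fold lower, which meets 1.5-fold and not 2-fold. With 1 array per siRNA in each line, these differences within a line are sizes and have no test.

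INSR, the insulin receptor, read lower with siTTF-1 in NCI-H209 and averaged under the limit in Lu139. Its probe set 213792_s_at read 771 with siTTF-1 and 1306 with siNTC in NCI-H209. In Lu139 it read 31.3 with siTTF-1 and 40.9 with siNTC, and the mean of these arrays was just below the limit. The log2 difference was -0.75 in NCI-H209, and 1.67% of the genes expressed in that line had a difference as low or lower. All 5 INSR probe sets were lower with siTTF-1 in NCI-H209, by log2 differences from -0.75 to -0.44. In Lu139 all 5 averaged below the limit, with differences from -0.25 to 0.09. The mean over lines was -0.50 ± 0.35 (SD, n = 2 lines), which limma did not call (adjusted p = 0.180, 95% interval -0.82 to -0.17). INSR entered that test through NCI-H209, and the Lu139 part of the mean rests on readings averaging under the limit. In Lu139, 1 INSR probe set was lower with siTTF-1, 3 were higher and 1 was equal, so the mean and interval do not show a drop in both lines.

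IGF1R, the receptor for insulin-like growth factors and the closest relative of INSR, was lower by less. Its probe set 225330_at read 112 with siTTF-1 and 135 with siNTC in NCI-H209, and 577 with siTTF-1 and 652 with siNTC in Lu139. The log2 differences were -0.23 and -0.17, and limma gave an adjusted p of 0.363. Of its other expressed probe sets, 203628_at went the other way in NCI-H209 (0.06) and 208441_at in Lu139 (0.18).

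ERBB4, a receptor for neuregulins, had the largest difference of any receptor, at a low level. Its probe set 214053_at read 26.8 with siTTF-1 and 83.9 with siNTC in NCI-H209, a log2 difference of -1.17, and the siTTF-1 value itself lay under the limit of 37.0. In Lu139 it was dim, at 9.81 with siTTF-1 and 14.2 with siNTC. A second probe set, 206794_at, read 31.9 with siTTF-1 and 43.1 with siNTC in NCI-H209 (-0.29), and the other pair of ERBB4 probe sets stayed under the limit on all 4 arrays. The mean of ERBB4 over the 4 arrays was too low for it to enter the test across lines.

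The rest of the ERBB family, receptors for EGF-like ligands, differed little. EGFR had exactly the same reading, 73.8, with siTTF-1 and with siNTC in NCI-H209 and 98.1 with siTTF-1 against 73.9 with siNTC in Lu139 for 1565483_at. Its 9 probe sets all lay between 18.2 and 98.1 on the 4 arrays, and those above the limit disagreed in sign in each line. ERBB2, the partner without a known ligand of its own, read 152 with siTTF-1 and 164 with siNTC in NCI-H209, and 143 with siTTF-1 and 154 with siNTC in Lu139. ERBB3, a neuregulin receptor with weak kinase activity, read 1056 with siTTF-1 and 960 with siNTC in NCI-H209, and 154 with siTTF-1 and 161 with siNTC in Lu139.

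FGFR3 was the only receptor past 1.5-fold in the upward direction. Its probe set 204379_s_at read 260 with siTTF-1 and 155 with siNTC in NCI-H209, a log2 difference of 0.68, and 99.4% of expressed genes had a difference as low or lower. In Lu139 it was just under the limit, at 33.5 with siTTF-1 and 35.5 with siNTC (-0.06). The other FGFR3 probe set, 204380_s_at, lay between 9.31 and 13.4 on all 4 arrays and did not bear on the difference. Across lines limma gave a mean of 0.31 ± 0.52 (SD, n = 2 lines) with an adjusted p of 0.388. FGFR3 too entered that test through NCI-H209.

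The probe sets of FGFR1, which binds a wide range of fibroblast growth factors, differed in direction. The brightest, 211535_s_at, read 337 with siTTF-1 and 320 with siNTC in NCI-H209, and 239 with siTTF-1 and 200 with siNTC in Lu139. The probe set 226705_at read 285 with siTTF-1 and 428 with siNTC in NCI-H209 (-0.56), and 151 with siTTF-1 and 168 with siNTC in Lu139 (-0.14). Another, 215404_x_at, read 90.7 with siTTF-1 and 106 with siNTC in NCI-H209 (-0.19), and 161 with siTTF-1 and 312 with siNTC in Lu139 (-0.88). That last value is past 1.5-fold and would make FGFR1 the 1 receptor lower in Lu139 if each probe set were counted on its own. Its suffix marks probes that may bind other transcripts. FGFR4 read 86.6 with siTTF-1 and 74.4 with siNTC in NCI-H209, and 68.0 with siTTF-1 and 61.6 with siNTC in Lu139, and its probe sets also differed in sign in each line. The brightest of 11 FGFR2 probe sets, 208234_x_at, lay between 71.0 and 88.1 on the 4 arrays.

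MET, the receptor for hepatocyte growth factor, was lower with siTTF-1 in both lines by its brightest probe set. That probe set, 203510_at, read 700 with siTTF-1 and 1024 with siNTC in NCI-H209, and 693 with siTTF-1 and 792 with siNTC in Lu139. The log2 differences were -0.54 and -0.19, the lowest mean of the 27 receptors expressed in both lines, at -0.36 ± 0.25 (SD, n = 2 lines). Limma gave an adjusted p of 0.218. A second probe set, 211599_x_at, differed by -0.14 and -0.03, and 213807_x_at stayed between 114 and 115 on all 4 arrays. MST1R, the related receptor for macrophage-stimulating protein, went the other way, by 0.18 in NCI-H209 and 0.18 in Lu139.

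RYK, a Wnt receptor with an inactive kinase domain, had the highest mean of the 27 receptors and the smallest adjusted p of any receptor. Its probe set 202853_s_at read 1560 with siTTF-1 and 1162 with siNTC in NCI-H209, and 1203 with siTTF-1 and 988 with siNTC in Lu139. All 3 RYK probe sets were higher with siTTF-1 in both lines, by 0.42 to 0.47 in NCI-H209 and by 0.20 to 0.29 in Lu139. The mean was 0.35 ± 0.10 (SD, n = 2 lines), with a limma 95% interval from 0.13 to 0.57 and an adjusted p of 0.173. PTK7, another pseudokinase of Wnt signalling, differed by 0.12 and 0.06.

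Among the Eph receptors, which bind membrane-anchored ephrins on neighbouring cells, EPHA4 read lower with siTTF-1 in both lines. Its probe set 227449_at read 239 with siTTF-1 and 265 with siNTC in NCI-H209 (-0.14), and 201 with siTTF-1 and 296 with siNTC in Lu139 (-0.52). All 4 expressed EPHA4 probe sets were lower in Lu139, by -0.52 to -0.26. In NCI-H209, 3 were lower and 229374_at was higher (0.18). The adjusted p over both lines was 0.269 in limma.

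EPHA7 was lower in NCI-H209, at 319 with siTTF-1 and 418 with siNTC (-0.37), and read 48.3 with siTTF-1 and 49.9 with siNTC in Lu139 (-0.04). EPHB1 had 91.6 with siTTF-1 and 132 with siNTC in NCI-H209 (-0.45), and 176 in both Lu139 arrays. EPHA2, EPHB4 and EPHA5 had higher readings with siTTF-1 in each line. EPHA2 had 51.4 with siTTF-1 and 39.2 with siNTC in NCI-H209, and 48.0 with siTTF-1 and 38.6 with siNTC in Lu139. EPHB4 read 110 with siTTF-1 and 85.6 with siNTC in NCI-H209, and 76.0 with siTTF-1 and 65.6 with siNTC in Lu139. EPHA5 read 52.9 with siTTF-1 and 42.9 with siNTC in NCI-H209, and 42.6 with siTTF-1 and 36.5 with siNTC in Lu139. The limma adjusted p was 0.227 for EPHA2, 0.280 for EPHB4 and 0.316 for EPHA5.

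KIT, the stem cell factor receptor, was bright in both lines, at 1061 with siTTF-1 and 1261 with siNTC in NCI-H209 and at 735 with siTTF-1 and 733 with siNTC in Lu139. PDGFRB, a receptor for platelet-derived growth factor, read 61.8 with siTTF-1 and 55.1 with siNTC in NCI-H209, and 43.7 with siTTF-1 and 32.3 with siNTC in Lu139. RET, the receptor of the GDNF family, read 115 with siTTF-1 and 114 with siNTC in NCI-H209 and 86.9 with siTTF-1 and 89.9 with siNTC in Lu139, while its probe set 215771_x_at was higher in both lines (0.16 and 0.32). The remaining expressed receptors, among them the VEGF receptors FLT1 and FLT4, the neurotrophin receptor NTRK3 and the GAS6 receptor TYRO3, had differences between -0.20 and 0.24 in the lines in which they were expressed, apart from ROR1 in Lu139 (0.28).

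**Figure D2:**
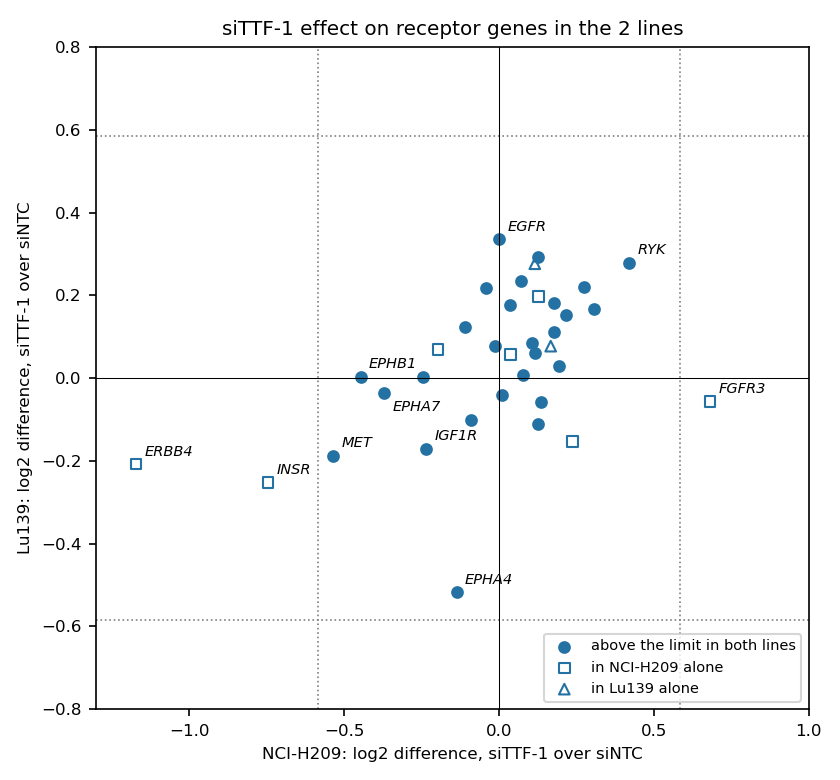
Log2 difference of siTTF-1 over siNTC in NCI-H209 (x axis) and in Lu139 (y axis), 1 point per receptor gene, for the 36 receptors expressed in at least 1 line, with dotted lines at 1.5-fold. Filled points are expressed in both lines and open points in 1. ERBB4 and INSR lie left of the 1.5-fold line and FGFR3 right of it, with no point past 1.5-fold in Lu139.

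**Figure D3:**
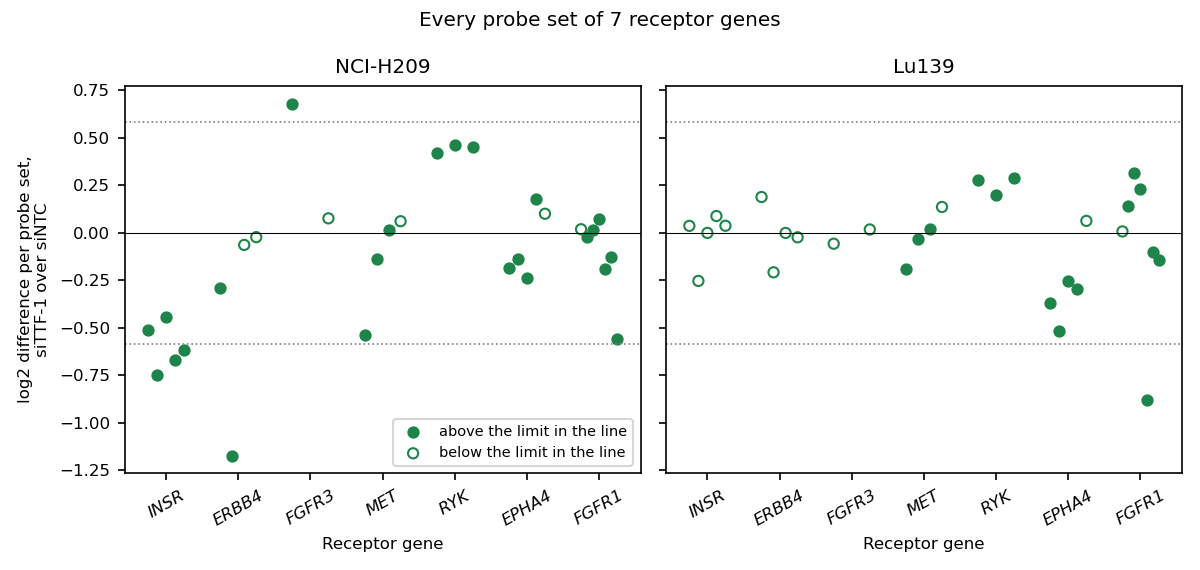
Log2 difference of siTTF-1 over siNTC for every probe set (points) of 7 receptor genes (x axis) in NCI-H209 and Lu139, filled where the probe set was above the limit in that line, with dotted lines at 1.5-fold. The 5 INSR points in NCI-H209 and the 3 RYK points in both lines lie on 1 side of 0, and the FGFR1 points lie on both sides.

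The question whether siTTF-1 shifted the receptors in both lines was put to limma with a term for line, in which the 2 lines are the only replication. No receptor of the 31 tested passed an adjusted p under 0.05 in the lower direction, as was true of 0% of the 14547 genes tested, or in the higher direction, also 0% of genes. At an unadjusted threshold of 0.05, 3 receptors were lower (INSR, MET and EPHA4, 9.68%), against 9.25% of genes, and 3 were higher (RYK, EPHA2 and EPHB4, 9.68%), against 7.23% of genes. These shares are near those of all genes. Of the receptors tested, INSR, FGFR3 and DDR2 were expressed in NCI-H209 alone and ROR1 in Lu139 alone. They entered this test through that line, and for INSR the Lu139 difference (-0.25) came from readings averaging under the limit. NKX2-1 itself had a limma adjusted p of 0.0844, with a mean log2 difference of -0.98 ± 0.35 (SD, n = 2 lines), so the test did not call the targeted gene either. All p-values here rest on 1 residual degree of freedom per gene, pooled with that of other genes. It measures how unlike the siTTF-1 difference was in the 2 lines. Technical spread and a true difference in response cannot be told apart in it, and precision is limited by the few arrays.

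By direction alone, 5 of the 27 receptors expressed in both lines were lower with siTTF-1 in each line (ERBB2, IGF1R, MET, EPHA4 and EPHA7), which is 18.5%, against 27.5% of the 13306 genes expressed in both. Readings were higher in each line for 13 receptors (48.1%), against 37.7% of genes. These were FGFR1, FGFR2, FGFR4, PDGFRB, FLT3, FLT1, MST1R, NTRK3, PTK7, RYK, EPHA2, EPHA5 and EPHB4. The median log2 difference of the 27 receptors was 0.07 in NCI-H209 and 0.08 in Lu139, against 0.01 and 0.03 for all 13306 genes. The range was -0.54 to 0.42 in NCI-H209 and -0.52 to 0.34 in Lu139.

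The level of each receptor in the lines was compared through the line term of the same limma fit. Of the 31 receptors tested with limma, ROR1 and IGF1R were at least 2-fold higher in Lu139 than in NCI-H209 at an adjusted p under 0.05 (6.45%), against 5.4% of the 14547 genes. ERBB3, INSR, FGFR3, PTK7 and EPHA7 were at least 2-fold lower in Lu139 (16.1%), against 20.2% of genes. The median of all genes was itself lower in Lu139, by a log2 difference of -0.28, and 78.9% of all calls were lower there. With quantile normalization over the 4 arrays that median was 0.04 and the share of lower calls 53.9%. The same 7 receptors were called under both scalings. INSR and FGFR3 averaged under the limit in Lu139 and ROR1 in NCI-H209. These 3 were thus tested only through the line in which they were high. Their differences are given as lower bounds, with each reading under the limit set at the limit. The limma p-values given with them belong to the differences as read and do not test the bounds. Among the 27 receptors expressed in both lines, IGF1R was the 1 called higher in Lu139 (3.7%), against 4.28% of the 13306 genes, and ERBB3, PTK7 and EPHA7 were called lower (11.1%), against 18.7% of genes.

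Exact ties occurred within lines alone: 2416 probe sets tied on the NCI-H209 arrays and 2206 on the Lu139 arrays, with 0 ties across lines, and these included 6 and 10 of the 155 receptor probe sets. Values scaled per line would look so, and the scaling is not given in the sources used here. Small differences between lines are therefore given with no call, and the labels do not say whether the arrays of a line came from separate cultures.

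The insulin receptor pair ran in opposite directions. INSR had 31.3 and 40.9 in Lu139, against 771 and 1306 in NCI-H209 (siTTF-1, then siNTC). It was at least 17.8-fold lower in Lu139 on this scale (limma adjusted p = 6.45e-07 for the difference as read, not the bound). All 5 of its probe sets averaged under the limit in Lu139 and above it in NCI-H209. IGF1R had 577 and 652 in Lu139, against 112 and 135 in NCI-H209, a log2 difference of 2.16 (1.92 to 2.40, limma adjusted p = 2.76e-06), or 4.47-fold higher in Lu139. Of its other probe sets, 203628_at was called in the same direction (1.45) and 203627_at differed by 0.90. Relative to the median of all genes, the difference of IGF1R was 2.44 as deposited and 2.51 after quantile normalization.

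ROR1, a receptor for WNT5A, was higher in Lu139, at 223 with siTTF-1 and 181 with siNTC there, against 13.8 with siTTF-1 and 11.3 with siNTC in NCI-H209. It was at least 3.95-fold higher in Lu139 (limma adjusted p = 6.48e-07 for the difference as read, not the bound). The probe set 205805_s_at was also above the limit in Lu139 alone, while 211057_at stayed between 41.5 and 44.8 on all 4 arrays. WNT5A read 18.04 with siTTF-1 and 20.1 with siNTC in Lu139, below the limit, and 69.7 with siTTF-1 and 50.6 with siNTC in NCI-H209.

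ERBB3 was 5.82-fold lower in Lu139 than in NCI-H209 on this scale (log2 difference -2.54, limma adjusted p = 1.78e-06), and its probe set 202454_s_at had a log2 difference of -2.10. EPHA7 was 5.66-fold lower in Lu139 (-2.50, limma adjusted p = 2.55e-06), with 238533_at at -2.20. FGFR3 was at least 3.95-fold lower by a single probe set (limma adjusted p = 3.24e-05 for the difference as read, not the bound). PTK7 was 2.88-fold lower (-1.53, limma adjusted p = 1.23e-05), at 207 and 198 in Lu139 against 646 and 594 in NCI-H209 (siTTF-1, then siNTC). MERTK, too dim in Lu139 to be tested, had 11.1 and 9.92 there against 64.4 and 62.3 in NCI-H209. The probe sets of FGFR1 ran both ways between the lines, with 207937_x_at (-1.29) and 226705_at (-1.05) lower and 215404_x_at (1.06) higher in Lu139, each called by limma when probe sets were tested on their own. FGFR2 and EPHA4 also had a probe set called lower in Lu139 that their brightest probe set did not match, namely 208229_at of FGFR2 (-1.19), at 45.9 and 43.4 in Lu139 against 126 and 125 in NCI-H209 (siTTF-1, then siNTC), and 206114_at of EPHA4 (-1.13). By their brightest probe sets MET (-0.19), ERBB2 (-0.08) and EPHA4 (-0.04) had 95% intervals that included 0.

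**Figure D4:**
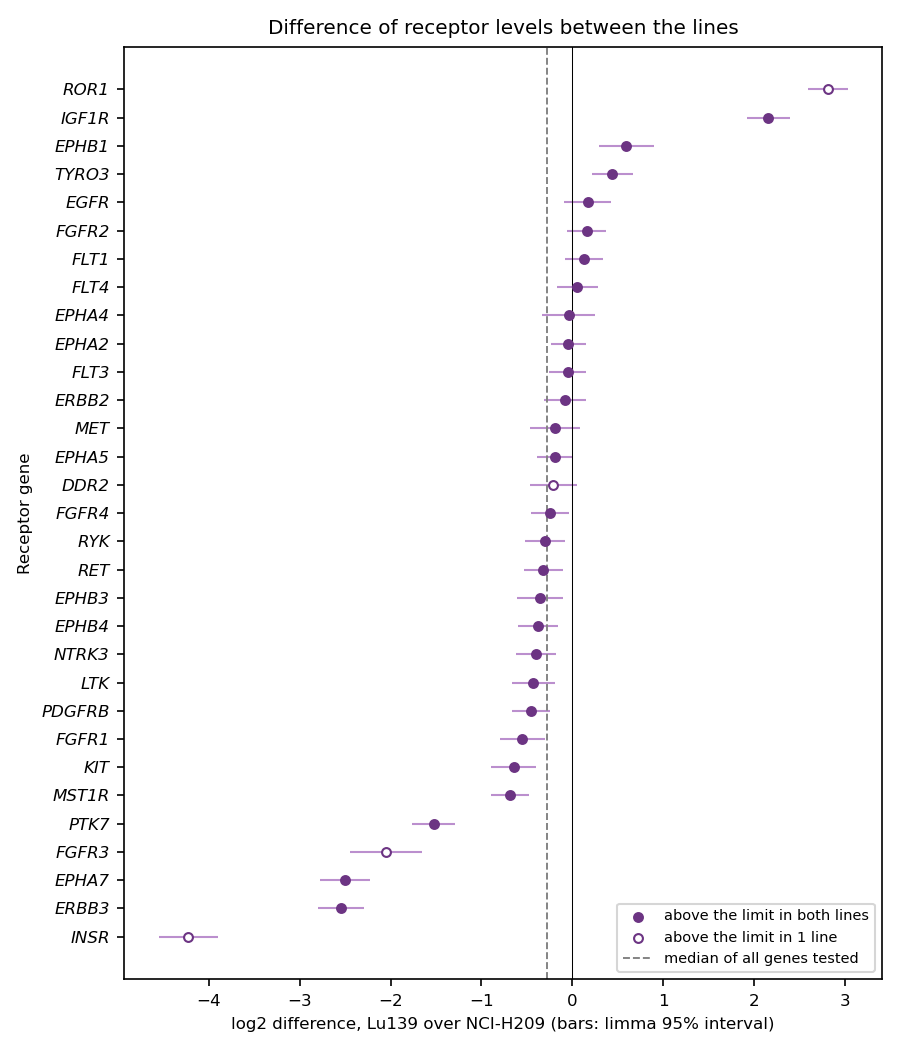
Log2 difference of Lu139 over NCI-H209 (x axis) for the 31 receptor genes tested (y axis, highest first), with points for the limma estimate and bars for its 95% interval. Filled points are above the limit in both lines and open points (INSR, FGFR3, ROR1 and DDR2) in 1, where the difference rests on a reading under the limit. The dashed line marks the median of all genes tested, -0.28. ROR1 and IGF1R lie far to the right and INSR, ERBB3, EPHA7, FGFR3 and PTK7 far to the left.

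The ligands, co-receptors and signalling partners of the receptors were followed in lists of genes. In NCI-H209, 6 list genes were at least 1.5-fold lower with siTTF-1 and 4 higher, and in Lu139 3 were lower and 0 higher. Expressed in NCI-H209 were 42 ligands, 9 co-receptors, 25 adaptors, 24 inhibitors, 10 RAS-ERK, 17 PI3K-AKT and 13 ERK-responsive genes. In Lu139 these were 38, 11, 26, 26, 10, 16 and 13. The shares of all genes are those given for the receptors (3.52% and 1.09% in NCI-H209, 0.936% and 0.193% in Lu139). Limma called no gene in any of the lists across both lines at an adjusted p under 0.05, as it called none of all genes tested.

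Of 61 ligand genes 56 had a value, 42 were expressed in NCI-H209 and 38 in Lu139. FGF14, an intracellular relative of the fibroblast growth factors, read 449 with siTTF-1 and 789 with siNTC in NCI-H209 (-0.79), and 155 with siTTF-1 and 225 with siNTC in Lu139 (-0.49). Of its 5 probe sets, at any level, 3 were lower and 2 higher in NCI-H209, and 4 were lower and 1 higher in Lu139. ANGPT2, a ligand of the TEK receptor, had 661 with siTTF-1 and 338 with siNTC in NCI-H209 (0.93), and 109 on both Lu139 arrays. ANGPT1, the activating ligand of TEK, went the other way in NCI-H209, at 262 with siTTF-1 and 407 with siNTC (-0.60), and was dim in Lu139. TEK itself read 52.5 with siTTF-1 and 46.6 with siNTC in NCI-H209.

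In Lu139, FGF2, a ligand of the FGF receptors, read 101 with siTTF-1 and 168 with siNTC (-0.65). PGF, a ligand of FLT1, read 692 with siTTF-1 and 1210 with siNTC in Lu139 (-0.79). In NCI-H209 it read 432 with siTTF-1 and 420 with siNTC (0.04). These are readings of its brightest probe set, whose suffix (_x_at) marks probes that may bind other transcripts. The 2 PGF probe sets, at any level, were higher with siTTF-1 in NCI-H209, while 1 was lower and 1 equal in Lu139. EFNB2, an ephrin, was the other ligand past 1.5-fold there, at 661 with siTTF-1 and 1024 with siNTC (-0.62). FGF18, which binds FGFR3, had 182 with siTTF-1 and 112 with siNTC in NCI-H209 (0.62).

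Ligands of the other receptors named above differed less. HGF, the ligand of MET, read 93.3 with siTTF-1 and 72.2 with siNTC in NCI-H209, and 84.0 with siTTF-1 and 74.0 with siNTC in Lu139. These are readings of its brightest probe set. Of the 5 HGF probe sets, at any level, 4 were lower and 1 higher with siTTF-1 in NCI-H209. In Lu139, 1 was lower, 2 were higher and 2 equal. NRG1, a ligand of ERBB3 and ERBB4, read 63.0 with siTTF-1 and 53.1 with siNTC in NCI-H209, and 57.1 with siTTF-1 and 61.1 with siNTC in Lu139. IGF1 read 93.4 with siTTF-1 and 83.6 with siNTC in NCI-H209, and 65.9 with siTTF-1 and 63.4 with siNTC in Lu139. FGF9 read 503 with siTTF-1 and 732 with siNTC in NCI-H209 (-0.52), and 505 with siTTF-1 and 537 with siNTC in Lu139. EFNB3, an ephrin that EPHA4 and EPHB1 can bind, read 211 with siTTF-1 and 153 with siNTC in NCI-H209 (0.42), and 680 with siTTF-1 and 690 with siNTC in Lu139. TGFA, a ligand of EGFR, read 150 with siTTF-1 and 224 with siNTC in NCI-H209 and was dim in Lu139. KITLG, the ligand of KIT, read 703 with siTTF-1 and 809 with siNTC in NCI-H209, and 110 with siTTF-1 and 132 with siNTC in Lu139.

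Of the adaptors, 25 were expressed in NCI-H209 and 26 in Lu139, and NCK2, which links receptors to the actin cytoskeleton, was the 1 gene past 1.5-fold. It read 720 with siTTF-1 and 1188 with siNTC in NCI-H209 (-0.71), and 651 with siTTF-1 and 859 with siNTC in Lu139 (-0.39). Of the inhibitors, 24 were expressed in NCI-H209 and 26 in Lu139, and both genes past 1.5-fold were lower in NCI-H209. SOCS6, a suppressor of cytokine signalling protein that binds KIT, read 264 with siTTF-1 and 452 with siNTC there (-0.73), and 90.3 with siTTF-1 and 124 with siNTC in Lu139 (-0.39). SH3KBP1, a partner of CBL in receptor endocytosis, read 238 with siTTF-1 and 388 with siNTC in NCI-H209 (-0.66) and 173 with siTTF-1 and 194 with siNTC in Lu139 (-0.15).

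In the RAS-ERK list, with 10 genes expressed in each line, the scaffold KSR2 was the 1 gene past 1.5-fold, at 181 with siTTF-1 and 284 with siNTC in NCI-H209 (-0.60) and 151 with siTTF-1 and 208.9 with siNTC in Lu139 (-0.42). None of the PI3K-AKT genes passed (17 expressed in NCI-H209 and 16 in Lu139), nor did any co-receptor (9 and 11 expressed).

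ERK-responsive genes are those whose transcription follows ERK activity in many cell types. Of the 11 expressed in both lines, 8 had a higher reading with siTTF-1 in each line and none a lower reading in each line, against the 37.7% of all genes that were higher in each. PHLDA1 read 461 with siTTF-1 and 251 with siNTC in NCI-H209 (0.83), and 153 with siTTF-1 and 132 with siNTC in Lu139 (0.19). FOS read 124 with siTTF-1 and 75.6 with siNTC in NCI-H209 (0.60), and 139 with siTTF-1 and 117 with siNTC in Lu139 (0.22). The median of the 11 was 0.27 in NCI-H209 and 0.14 in Lu139, against 0.01 and 0.03 for all genes expressed in both lines. Limma called none of these genes. The list was chosen with earlier results of these data known, so its count and median are descriptions and not independent support. Some genes of the inhibitor list are ERK-induced as well. Of these, DUSP6 read lower with siTTF-1 in both lines (-0.10 and -0.19, with all 3 probe sets lower in each), SPRY2 differed by -0.08 and -0.01, and SPRY4 by 0.10 and 0.13.

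**Figure D5:**
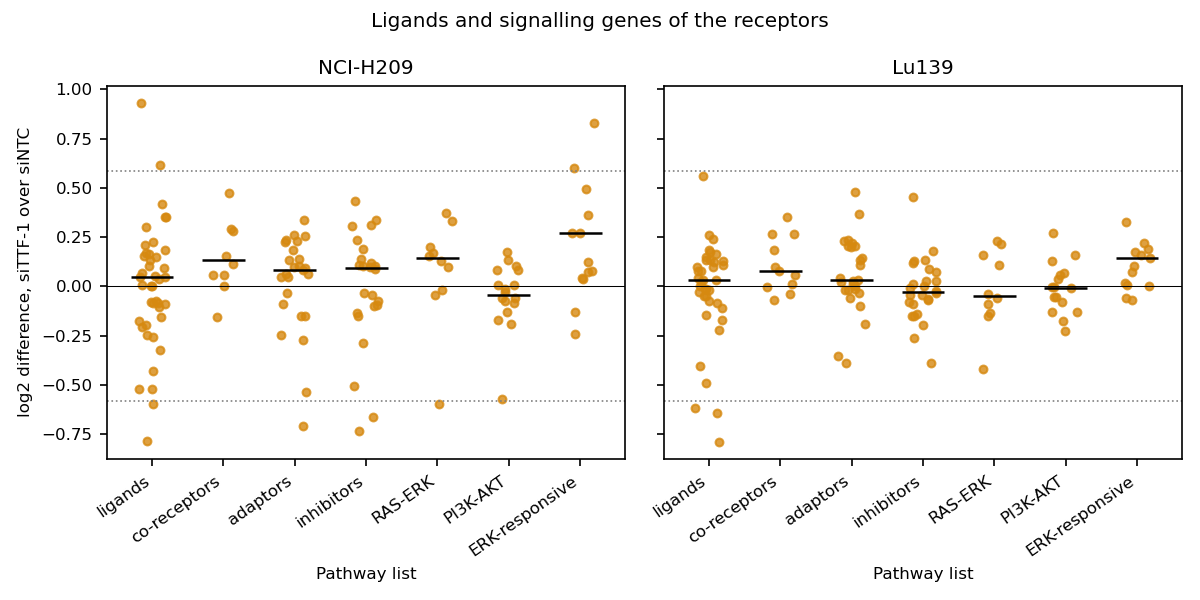
Log2 difference of siTTF-1 over siNTC (y axis) for each gene of 7 pathway lists (x axis) expressed in NCI-H209 or in Lu139, with a bar at the median of the list's genes expressed in both lines and dotted lines at 1.5-fold. Most points lie between the dotted lines, and the bar of the ERK-responsive list is the highest in each line, at 0.27 in NCI-H209 and 0.14 in Lu139.

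The ligands were also compared between the lines. Of the 46 ligand genes tested, limma called 7 at least 2-fold higher and 14 at least 2-fold lower in Lu139 than in NCI-H209, to be read against 5.4% and 20.2% of all genes. These counts include ligands under the limit in 1 line. KITLG was lower in Lu139 (log2 difference -2.47, limma adjusted p = 1.56e-06). TGFA and ANGPT1 were under the limit in Lu139 and at least 3.64-fold and 6.21-fold lower there. EFNB3 was higher in Lu139 (1.83, limma adjusted p = 1.77e-05), and FGF2, under the limit in NCI-H209, was at least 2.69-fold higher in Lu139. KIT, the receptor of KITLG, read lower in Lu139 by less than 2-fold as deposited (-0.64, limma adjusted p = 0.00115). After quantile normalization over the 4 arrays its difference was -0.19 (limma adjusted p = 0.133), so it is given with no call.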

How the data were processed

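Total RNA of 4 samples of 2 established lines was turned into biotinylated cRNA for Affymetrix arrays, per the labels. The authors deposited linear probe set intensities (array medians 48.4 to 57.7). The submitters' processing notes name Affymetrix Expression Console, with algorithm, normalization and build not given in the sources used here.

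Of 54675 probe sets, 62 controls were dropped, and 41091 had 1 annotated gene, 1801 several and 11721 none. RefSeq identifiers updated 41037 symbols. A gene took its brightest probe set by mean log2. Values were log2(intensity + 18.7), the 25th percentile, so folds of dim genes are understated. The limit was the 40th percentile. Limma 3.58.1 in R 4.3.3 (terms for line and siRNA, intensity trend, 1 residual and 5.91 prior degrees of freedom, two-sided) was adjusted by Benjamini-Hochberg over 14547 genes and tested on simulated data.

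Receptors and lists were chosen with earlier results of these data known. Receptors were given in full if past 1.5-fold, among the 5 highest or lowest by mean, at least 4-fold different between lines, or with probe sets disagreeing in sign by at least 0.3. List genes were named if past 1.5-fold (at most 6 a list), with a ligand of each receptor named. ERBB2, KIT, PTK7, MST1R, MERTK, FGFR2, TEK, EFNB2, DUSP6, SPRY2 and SPRY4 fall outside the rule and were named after their values were seen.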

Additional observations from a re-analysis of the deposited data

Results flagged for a closer look

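Several readings ran in opposite directions in the 2 lines, and with 1 array per group the difference between lines was not tested. All values are log2 differences of siTTF-1 over siNTC, in NCI-H209 and then in Lu139. Among the 27 receptors expressed in both lines these were 8. Of all 13306 genes expressed in both lines, 27.5% were lower in each and 37.7% higher in each. The rest of those genes also ran in opposite directions or had a tie, so such readings are common. KIT had -0.24 and 0.0029, and EPHB1 had -0.45 and 0.0033. ERBB3 had 0.13 and -0.057, RET 0.0084 and -0.041, and FLT4 0.12 and -0.11. LTK had -0.042 and 0.22, TYRO3 -0.013 and 0.078, and EPHB3 -0.11 and 0.12. FGFR3, under the expression limit in Lu139, had 0.68 and -0.057. Of the ligands given above, PGF had 0.038 and -0.79, EFNB2 0.15 and -0.62, NRG1 0.19 and -0.074, and EFNB3 0.42 and -0.021. TGFA (-0.52 and 0.020) and WNT5A (0.35 and -0.080) were under the limit in Lu139.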

How the results depend on the processing

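Of 120 counts under alternatives, 104 stayed within 1.5 times of the reported count. Signs of small differences did turn. When probe sets were averaged, FGFR1 read lower with siTTF-1 in both lines and ERBB2 higher in Lu139, opposite to their brightest probe sets. In NCI-H209 the 2 receptors lower became 1 at a 2-fold threshold (ERBB4), 1 with the expression limit at the 60th percentile and 1 when the probe sets of a gene were averaged (INSR in both), and the 1 receptor higher became 0 at 2-fold and 0 after averaging. In Lu139 the count of lower receptors became 1 (FGFR1) with each probe set on its own. Between lines, receptors higher in Lu139 became 1 at the 60th percentile and 1 after averaging, and those lower became 8 with each probe set on its own and 3 after averaging. List genes lower became 3 in NCI-H209 and 1 in Lu139 after averaging. List genes higher in NCI-H209 became 2 after averaging and 2 with the pseudocount doubled, and those in Lu139 became 1 with it halved and 1 with quantile normalization over the 4 arrays. Averaging includes dim probe sets, and the cause of these changes was not tested. No receptor was called across lines under any alternative, including an adjusted p under 0.1, and the smallest limma adjusted p of a receptor ranged from 0.110 to 0.248 with a line term and was 1 without it. Over all genes, limma called 0 lower and 0 higher in the reported fit, 39 and 8 at an adjusted p under 0.1, 32 and 6 at the 60th percentile, 49 and 17 with quantile normalization over the 4 arrays and 33 and 8 with it within each line. Of the single values, 376 moved by less than the spread of the limma fit and 80 by more. The reported fit is paired by line through its line term, and the labels give no replicate numbers. Signal over background limits what can be said of ERBB4 and FGFR3 in Lu139, which were under the limit of 37.0 there.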
